A study of Mus musculus with 10 samples.

Results

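Aminoacyl-tRNA synthetases are the enzymes that load each transfer RNA with its amino acid, and 36 genes for them were examined among the 26599 genes measured in mouse B cells. The members were listed by symbol, and the rule uses no measured value. The 20 genes without a final 2 in their symbol form the cytosolic set and the 16 with it the mitochondrial set. All 36 symbols were found in the tables, and all 36 reached at least 5 TPM (the share of all transcripts that are of this gene, corrected for their length and for library depth) in 1 library or both.

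The study compared naive B cells with plasma cells, into which B cells mature to secrete antibody, and its title places the unfolded protein response of plasma cells at its centre. RNA was sequenced in 1 library of each cell type from wild-type C57BL/6 mice, with 37.0 M estimated counts for naive B cells and 43.5 M for plasma cells. Naive B cells were CD23+ IgD+ cells sorted from spleen. The labels of the plasma library conflict: the source names cells activated in vitro and then sorted, the growth protocol a culture of splenic cells selected for CD23, and the protocol for RNA extraction names sorting from bone marrow for CD138 without B220, IgD, CD4, CD8, Gr1 or Ter119. Which of these applies could not be settled from the labels, and whether animals were pooled is not given in the sources used here. With 1 library per cell type there is no replicate check and no test, and intervals are exact 95% Clopper-Pearson intervals that cover counting error only. In such bulk RNA, a change in the share of cells and a change in RNA per cell cannot be told apart.

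Each cytosolic synthetase charges tRNAs for the ribosomes that translate nuclear messages, including those of secreted proteins. The mitochondrial enzymes are also encoded in the nucleus, but are imported into mitochondria, where they charge the tRNAs that serve the few proteins of the mitochondrial genome. Several cytosolic synthetase genes are known targets of ATF4, the transcription factor of the integrated stress and amino acid response. Gars and Kars supply both compartments, and mitochondria make glutaminyl-tRNA by a different route, through an amidotransferase, so that Qars has no mitochondrial partner.

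The libraries matched their labels by most of the markers examined. All 6 naive B markers found in the tables were at least 2-fold lower in the plasma library, among them Fcer2a, which encodes CD23. Of 8 plasma cell markers, 7 were at least 2-fold higher, led by the plasma cell regulator Prdm1. The exception was Sdc1, which encodes CD138, at 11.1 TPM in the naive and 5.38 TPM in the plasma library. Immunoglobulin genes took 5.02% of all TPM in the naive and 34.7% in the plasma library. TPM values are shares of a fixed total, and the median gene with at least 5 TPM in both libraries had a log2 plasma over naive ratio of -0.99. That shift was subtracted, and the result is called the centred ratio below. A gene was called higher or lower when its centred ratio, computed on TPM plus a pseudocount of 1, reached 1 or -1, provided that either library held 5 TPM or more of it. The pseudocount pulls the ratio of low genes toward equal TPM before the shift is subtracted. The centred ratio of a low gene with less TPM in the plasma library is thereby raised, and that of one with more TPM is lowered.

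The cytosolic synthetases were mostly higher in the plasma library, and the mitochondrial ones mostly were not. Of 20 cytosolic members, 14 were called higher and none lower, against 16.0% of the 10219 genes with at least 5 TPM called higher and 22.1% called lower. Of 16 mitochondrial members, 1 was called higher and 2 lower. The median centred ratio was 1.57 for the cytosolic set, or 2.98-fold, and -0.35 for the mitochondrial set, against -0.23 over all genes with at least 5 TPM. Without centring, 14 cytosolic members had a higher TPM in plasma cells and 6 a lower one, and 1 mitochondrial member had a higher TPM and 15 a lower one. On that uncentred scale 6 cytosolic members (Yars, Nars, Cars, Gars, Aars and Sars) reached a log2 ratio of 1, and of all genes 792 were called higher and 5890 lower, against 1634 and 2257 with centring. Estimated counts scaled with TMM factors gave 2248 and 1716, with 16 cytosolic members called higher. The level of the median cytosolic member was 53.3 TPM in the naive and 76.3 TPM in the plasma library, while that of the median mitochondrial member was 21.0 TPM and 6.45 TPM.

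**Figure D1:**
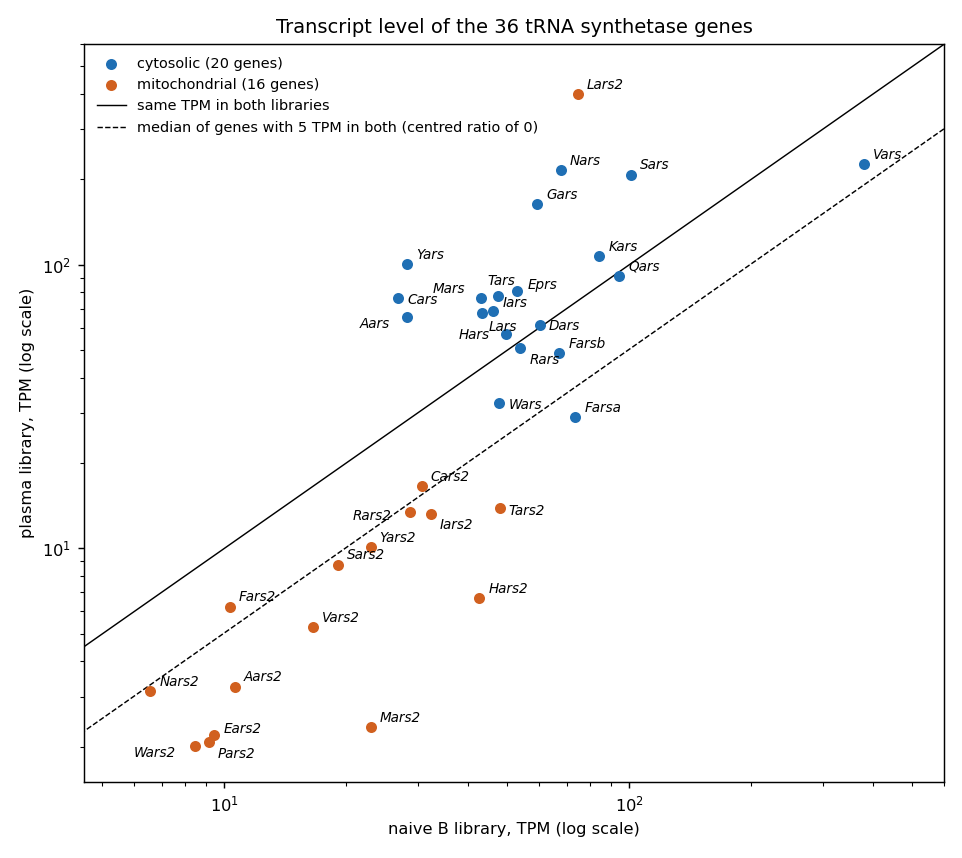
TPM of the 36 tRNA synthetase genes in the naive B library (horizontal axis, log scale) and the plasma library (vertical axis, log scale), 1 point per gene, blue for cytosolic and orange for mitochondrial. The solid line marks equal TPM and the dashed line the shift of -0.99 that was subtracted; of the mitochondrial genes, Lars2 is the only point above the solid line, and 14 cytosolic genes lie above it.

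The largest cytosolic differences were in the synthetases for tyrosine, asparagine, cysteine, glycine, alanine and serine. Yars, the tyrosine enzyme, stood at 28.3 TPM in the naive and 100.6 TPM in the plasma library, a centred ratio of 2.78. Nars, which charges asparagine tRNA, went from 67.7 TPM to 215 TPM, with a centred ratio of 2.64. Cars, the cysteine enzyme, measured 26.9 TPM and 76.3 TPM, with a centred ratio of 2.46. Each was at least 2-fold higher in plasma cells even before centring. Gars, the glycine enzyme of both compartments, was at 59.1 TPM in the naive and 163 TPM in the plasma library, a centred ratio of 2.44. Aars, for alanine, had 28.2 TPM and 65.5 TPM and a centred ratio of 2.18. Sars, for serine, had 101 TPM and 207 TPM and a centred ratio of 2.02. The 95% intervals of the count ratios of Cars, 2.40 to 2.57, and Gars, 2.46 to 2.58, overlapped, so that counting error alone does not separate their order, whereas that of Yars, 2.87 to 3.02, lay above them.

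Smaller differences that were still called higher were in the enzymes for methionine, threonine, leucine, glutamate with proline, isoleucine, lysine, histidine and aspartate. Mars, which also charges the initiator tRNA, was at 43.1 TPM in the naive and 76.4 TPM in the plasma library, with a centred ratio of 1.80. Tars, for threonine, had 47.5 TPM and 77.6 TPM, a centred ratio of 1.68. Lars, for leucine, had 43.2 TPM and 67.6 TPM, a centred ratio of 1.62. In all 3 the plasma level was above the naive level before any centring. Eprs, a fused enzyme for glutamate and proline, stood at 52.7 TPM and 80.9 TPM, with a centred ratio of 1.60. Iars, for isoleucine, stood at 46.2 TPM and 68.8 TPM, with a centred ratio of 1.55. Kars, for lysine, stood at 84.3 TPM and 107 TPM, with a centred ratio of 1.33. All 8 calls of this group rest on the centring, since no uncentred log2 ratio among them reached 1, and Hars and Dars were close to equal in TPM. Hars, for histidine, had 49.6 TPM in the naive and 57.0 TPM in the plasma library, a centred ratio of 1.18. Dars, for aspartate, had 60.0 TPM and 61.3 TPM, a centred ratio of 1.02 that lay just inside the threshold.

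The 6 cytosolic members without a call were Qars, Rars, Farsb, Wars, Vars and Farsa, and all 6 had a lower TPM in plasma cells. Qars, for glutamine, at 94.5 TPM and 91.1 TPM, and Rars, for arginine, at 53.9 TPM and 50.9 TPM, lay just outside the threshold with centred ratios of 0.93 and 0.91. Farsb, the beta subunit of the phenylalanine enzyme, had 67.1 TPM and 48.8 TPM and a centred ratio of 0.53. Wars, for tryptophan, had 47.8 TPM and 32.5 TPM and a centred ratio of 0.44. Farsa, the alpha subunit of the phenylalanine enzyme, was the only cytosolic member with a centred ratio below 0, at -0.33, with 73.5 TPM in the naive and 29.0 TPM in the plasma library. Vars, for valine, was the most abundant synthetase in naive B cells, at 380 TPM, and had 226 TPM in plasma cells, a centred ratio of 0.24. Vars took 26.1% of the summed TPM of the cytosolic set in the naive and 11.9% in the plasma library.

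**Figure D2:**
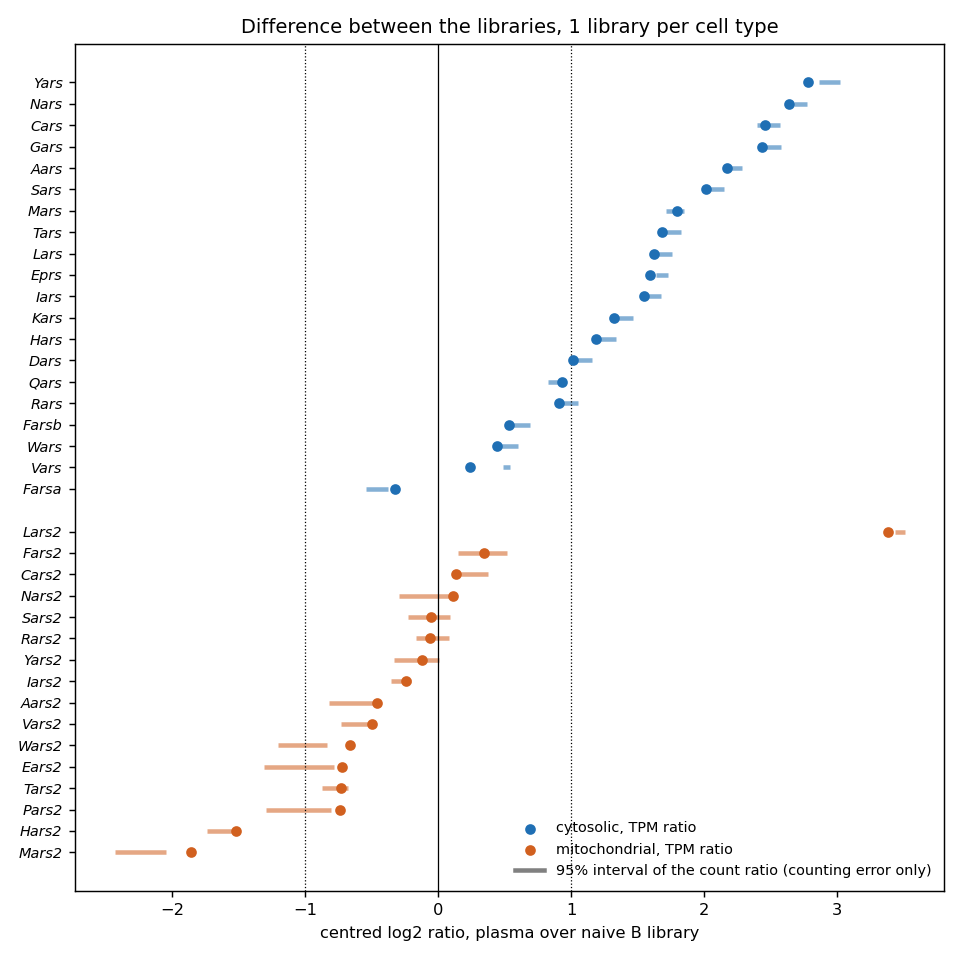
Log2 plasma over naive B ratio of each member, centred on the median of the 7495 genes that reached 5 TPM in each library, from TPM plus a pseudocount of 1 (points), with the 95% interval of the ratio of estimated counts (bars, counting error only), which was centred in the same way and uses no pseudocount or transcript length. Of the 20 intervals of cytosolic genes (blue) 19 lie above 0, and of the 16 of mitochondrial genes (orange) 9 lie below 0. The share of all genes with such intervals is not given here, so these counts describe the members only. Dotted lines mark the call thresholds.

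The multisynthetase complex is a cytosolic assembly that holds 8 of the listed enzymes (Eprs, Iars, Lars, Mars, Qars, Rars, Kars and Dars). Their centred ratios ran from 0.91 to 1.80, with a median of 1.44, and 6 of 8 were called higher. Counting error does not cover this spread, since the count-ratio intervals of Qars, 0.82 to 0.93, and Mars, 1.72 to 1.85, lay apart. The 12 cytosolic enzymes outside the complex ran from -0.33 to 2.78, with a median of 1.85, and 8 of 12 were called higher. No scaffold of the complex was called. Aimp1 had 74.6 TPM in the naive and 63.1 TPM in the plasma library, a centred ratio of 0.75. Aimp2 had 18.1 TPM and 13.3 TPM, a centred ratio of 0.57. Eef1e1, the third scaffold gene, had 29.9 TPM and 14.6 TPM, a centred ratio of 0.00. The complex enzymes all had centred ratios above those of the scaffolds. The count-ratio interval of Aimp1, 0.727 to 0.904, overlapped those of Qars, 0.825 to 0.926, and Rars, 0.903 to 1.050. Counting error alone thus does not separate the order of these 3.

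Among the mitochondrial synthetases, Lars2 stood apart. Lars2, the leucine enzyme, had 74.7 TPM in the naive and 399 TPM in the plasma library, a centred ratio of 3.39, which made it the most abundant of the 36 members in the plasma library. Its estimated counts were 6010 and 60559. The interval of the count ratio, 3.43 to 3.51, lay above the centred TPM ratio. Lars2 took 19.0% of the summed TPM of the mitochondrial set in the naive and 78.5% in the plasma library. Of its 31-base words (31 bases is the usual k-mer length of kallisto, the tool of the estimated counts), 42 of 3864, or 1.09%, also occur in transcripts of AA474408 or Gm15564, genes looked up after the value of Lars2 was seen. AA474408 had 8.19 TPM in the naive and 80.2 TPM in the plasma library. Gm15564 had 19.8 TPM and 76.0 TPM. Both were thus higher in the plasma library along with Lars2, and the part of the shared sequence in its value was not tested. Sequences were found for 51393 of the 61112 listed transcripts, and only these were compared. Within them, 28 of the 36 members shared no such word with another gene. Wars2, with 1.69%, and Tars, with 1.23%, were the only others above 1%.

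The other 15 mitochondrial synthetases all had a lower TPM in plasma cells, and the summed TPM of the set turns on Lars2. With Lars2 it was 393 in the naive and 508 in the plasma library, 1.29-fold, beside 1454 and 1903, or 1.31-fold, for the cytosolic set. Without Lars2 it was 318 in the naive and 109 in the plasma library, 0.343-fold. A lower TPM was common, since the median uncentred log2 ratio over all genes with at least 5 TPM was -1.22. After centring, the median ratio of the 15 members other than Lars2 was -0.46, or 0.727-fold, with 2 of 15 called lower and none higher. Of the 15, 3 had a centred ratio above 0, and 7 did on estimated counts scaled with TMM factors. Mars2, the mitochondrial methionine enzyme, had 23.0 TPM in the naive and 2.34 TPM in the plasma library, a centred ratio of -1.86, from estimated counts of 1366 and 263. Hars2, for histidine, had 42.6 TPM and 6.66 TPM, a centred ratio of -1.52. These were the only members called lower with the settings used here. With a pseudocount of 0.1 TPM 4 mitochondrial members were called lower, Ears2 and Pars2 in addition, and with centring on genes that reached 20 TPM in each library 6 were. Of the 10219 genes with at least 5 TPM, these settings called 2682 and 3471 lower, so the members were near the share of all genes. Pars2 (proline), Tars2 (threonine), Ears2 (glutamate) and Wars2 (tryptophan) had centred ratios of -0.74, -0.73, -0.72 and -0.67. Of these Tars2 was the most abundant, with 47.9 TPM in the naive and 13.9 TPM in the plasma library, while the others were at 8.45 to 9.45 TPM and 2.01 to 2.20 TPM. Vars2 (valine) had 16.6 TPM and 5.27 TPM, and Aars2 (alanine) 10.6 TPM and 3.26 TPM, with centred ratios of -0.50 and -0.46. Against the median gene these 6 were somewhat lower in plasma cells, short of the threshold on the TPM scale. The count ratios, which use no pseudocount, were -1.05 for Pars2, -1.05 for Ears2 and -1.02 for Wars2. Those of Tars2, Aars2 and Vars2 were -0.77, -0.645 and -0.60.

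The remaining 7 mitochondrial members had centred ratios from -0.24 to 0.34. The count-ratio intervals of Iars2 (-0.36 to -0.21), Cars2 (0.13 to 0.38) and Fars2 (0.15 to 0.52) did not hold 0. Iars2, for isoleucine, had 32.3 TPM in the naive and 13.2 TPM in the plasma library and a centred ratio of -0.24. Yars2, for tyrosine, had 23.0 TPM and 10.1 TPM and a centred ratio of -0.12. Rars2 (arginine), at 28.7 TPM and 13.4 TPM, and Sars2 (serine), at 19.1 TPM and 8.75 TPM, both had a centred ratio of -0.06. The highest ratios outside Lars2 were small. Nars2 (asparagine) had 6.57 TPM and 3.14 TPM, a centred ratio of 0.11. Its count ratio, which uses no pseudocount, was -0.10, with an interval of -0.29 to 0.09. Cars2 (cysteine) had 30.7 TPM and 16.6 TPM, a centred ratio of 0.13. Fars2 (phenylalanine) had 10.3 TPM and 6.24 TPM, a centred ratio of 0.34. The intervals of the count ratios of 4 mitochondrial members held 0, and half-widths reached 0.263 on the log2 scale in this set against at most 0.089 in the cytosolic set, which had more counts. The share of all genes whose interval held 0 is not given here. The 13 protein genes of the mitochondrial genome took 6.52% of all TPM in the naive and 1.66% in the plasma library, and the part of this difference in the values of the mitochondrial synthetases was not tested.

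The ratio of the cytosolic enzyme to its mitochondrial counterpart for the same amino acid was higher in plasma cells in 15 of 17 pairs. The median ratio of cytosolic over mitochondrial TPM was 2.66 in the naive and 9.95 in the plasma library, and the median change of the ratio was 5.27-fold. These pairs are not independent, since Eprs is in the glutamate and the proline pair and Fars2 in both phenylalanine pairs. The largest change was in methionine, where Mars over Mars2 went from 1.88 to 32.6, or 17.4-fold. Yars over Yars2 went from 1.23 to 9.95, or 8.07-fold. Aars over Aars2 went from 2.66 to 20.1, or 7.56-fold. In these pairs the cytosolic level was higher and the mitochondrial level lower in plasma cells. In the pairs of Farsb, Rars, Vars and Wars both levels were lower in plasma cells, the mitochondrial one by more. In naive B cells the cysteine and threonine pairs were near balance, at 0.88 for Cars over Cars2 and 0.99 for Tars over Tars2, and in plasma cells they stood at 4.61 and 5.58. The exceptions were leucine, where Lars over Lars2 went from 0.58 to 0.17, and the alpha subunit for phenylalanine, where Farsa over Fars2 went from 7.14 to 4.65.

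**Figure D3:**
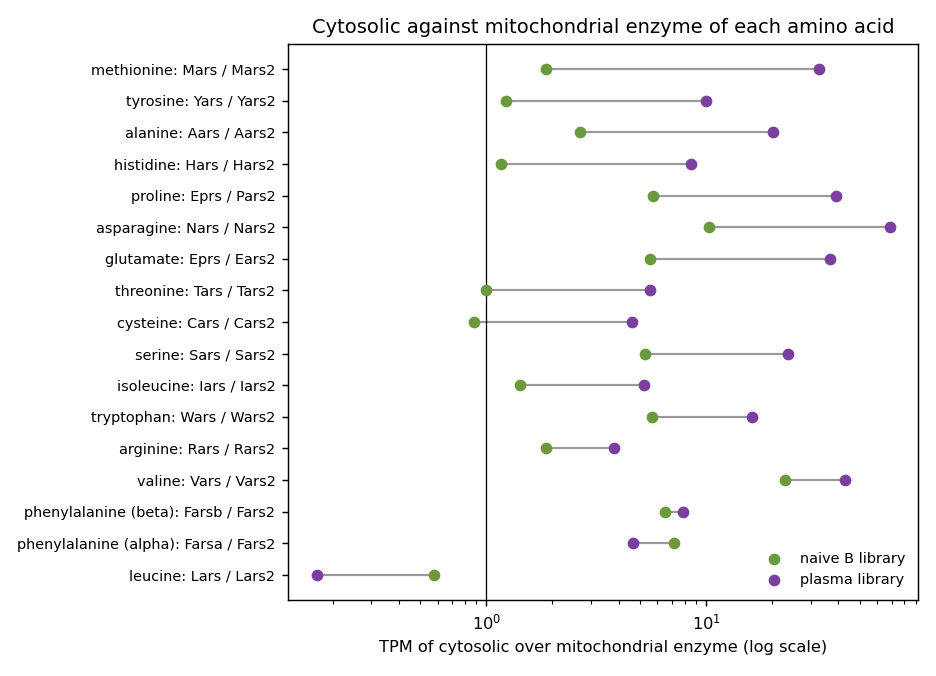
Ratio of the TPM of the cytosolic enzyme to that of the mitochondrial enzyme for each amino acid (log scale) in the naive B library (green) and the plasma library (purple), 17 pairs ordered by the change. The purple point is to the right in 15 pairs, farthest for methionine (1.88 and 32.6), and to the left for leucine (0.58 and 0.17) and the phenylalanine alpha subunit (7.14 and 4.65).

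Other genes that use or prepare tRNA had medians near that of all genes. The lists were compiled from general knowledge of the pathways, but with earlier results of these data known, so their counts are a description only. Of 13 other charging genes with at least 5 TPM, none was called in either direction, and the median centred ratio of the list was 0.00. It includes Gatc, a subunit of the mitochondrial amidotransferase, with 33.7 TPM in the naive and 8.11 TPM in the plasma library and a centred ratio of -0.94. Tarsl2, another cytosolic threonine enzyme, was low, at 4.67 TPM and 1.61 TPM. Of 25 tRNA processing genes, 1 was called higher and 1 lower, with a median of -0.21. The gene called higher was Xpot, the exporter of tRNA from the nucleus, at 19.5 TPM and 27.0 TPM, a centred ratio of 1.44. The gene called lower was Tsen15, a subunit of the tRNA splicing endonuclease, at 19.2 TPM and 3.85 TPM.

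The cytosolic translation factors had a higher median than the mitochondrial ones, by less than the synthetases did. Of 18 cytosolic translation factors, 5 were called higher and none lower, with a median centred ratio of 0.74. They included Eif2s2, the beta subunit of initiation factor eIF2, at 80.0 TPM in the naive and 145 TPM in the plasma library, and Eef2, the elongation factor that moves the ribosome along, at 1554 TPM and 2063 TPM. None of 11 mitochondrial translation factors was called, and their median was -0.18. Genes of the ATF4 and amino acid response had a higher median than the synthetases and the translation factors, and 22 of 24 with at least 5 TPM were called higher and none lower, with a median of 3.18. Asns, which makes asparagine, had 1.12 TPM in the naive and 146 TPM in the plasma library, a centred ratio of 7.10. Atf4 itself had 325 TPM and 441 TPM, a centred ratio of 1.43, and Ddit3, a transcription factor gene downstream of it, 35.8 TPM and 51.0 TPM, a centred ratio of 1.48.

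**Figure D4:**
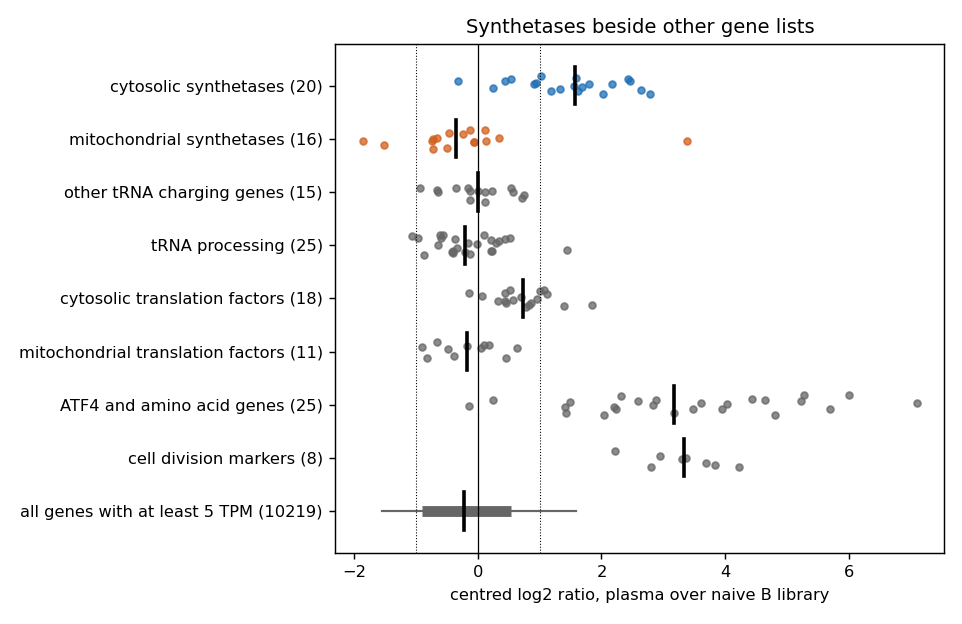
Centred log2 plasma over naive B ratio of the synthetases and of 6 other gene lists, 1 point per gene with at least 1 TPM in 1 library, with a black bar at the median; the vertical scatter has no meaning. The lowest line shows all 10219 genes with at least 5 TPM, with the median at -0.23, a thick bar for the quartiles and a thin line from the 10th to the 90th percentile; the cytosolic synthetases have a median of 1.57, above those of the translation factors and below that of the ATF4 and amino acid genes at 3.18.

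Markers of other states and cell types also differed between the libraries. All 8 cell division markers were called higher in plasma cells, with a summed level of 98.7 TPM in the naive and 548 TPM in the plasma library. Markers of T and NK cells (9 genes) summed to 106 TPM in the naive and 5.05 TPM in the plasma library, where 4 were at 0. Markers of myeloid cells (8 genes) summed to 141 TPM and 1.22 TPM, with 1 at 0 in plasma cells, and those of erythroid cells (5 genes) to 66.8 TPM and 0.01 TPM, with 4 at 0. The part of dividing cells and of these other cells in the synthetase values was not tested.

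The tables list 95 transcripts of the members, and in most members the same transcript led in both libraries. Of 26 members with at least 2 transcripts, 25 had the same leading transcript in naive B and plasma cells, and in 16 no transcript moved by as much as 5 percentage points of the gene's estimated counts. These counts were not set against those of other genes and describe the members only. The exception in the lead was Farsb, whose transcript Farsb-201 took 29.1% of the counts in the naive and 74.8% in the plasma library, while Farsb-202, with the same coding length of 1770 bases, took 70.9% and 25.2%. The members described next were chosen after their values were seen. Qars-001, with the longest coding sequence of the gene, took 54.8% (53.4 to 56.1) in the naive and 92.2% (91.6 to 92.7) in the plasma library. On the TPM scale Qars-001 was at 53.9 and 80.0, although the gene as a whole was at 94.5 and 91.1, since Qars-002 and Qars-003, which have shorter coding sequences, were lower in plasma cells.

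Farsa showed a like shift. Farsa-001, with the longest coding sequence of the gene, took 7.3% of the counts in the naive and 41.8% in the plasma library, at 6.06 TPM and 12.1 TPM. Farsa-003, which the GENCODE M21 annotation places among targets of nonsense-mediated decay, took 47.3% and 48.4%, at 42.1 TPM and 15.0 TPM. The lower level of Farsa in plasma cells was thus in transcripts other than Farsa-001. In Yars2, the transcript Yars2-001 took 59.7% and 88.3%. In Vars, a listed transcript of 388 bases, Vars-011, held 133 of the gene's 380 TPM in naive B cells and 53.0 of 226 TPM in plasma cells but only 4.7% and 2.7% of its counts, since TPM divides counts by length. The main transcript, Vars-002, was at 194 TPM and 150 TPM, and the interval of the count ratio of Vars, 0.49 to 0.54, lay above its centred TPM ratio of 0.24.

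The shifts did not all have the same direction. In 26 members, some transcript has a shorter coding sequence than the longest of the gene. The share of such transcripts was lower in plasma cells in 9, higher in 4 and within overlapping intervals in 13. Its median was 24.3% in the naive and 12.1% in the plasma library. The same counts over all genes are not given here, so whether the members differ from other genes in this was not tested. The naive median lies in the gap between Tars2, at 16.9%, and Cars2, at 31.7%, so that a few genes can move it. In Mars and Yars such transcripts held 100% in both libraries. Kars, whose cytosolic and mitochondrial enzymes arise by alternative splicing, changed little: Kars-201, with a coding length of 1788 bases, took 84.5% in the naive and 80.2% in the plasma library, and Kars-202, with a coding length of 1875 bases, 12.6% and 16.6%. Which of them encodes which enzyme was not determined here.

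**Figure D5:**
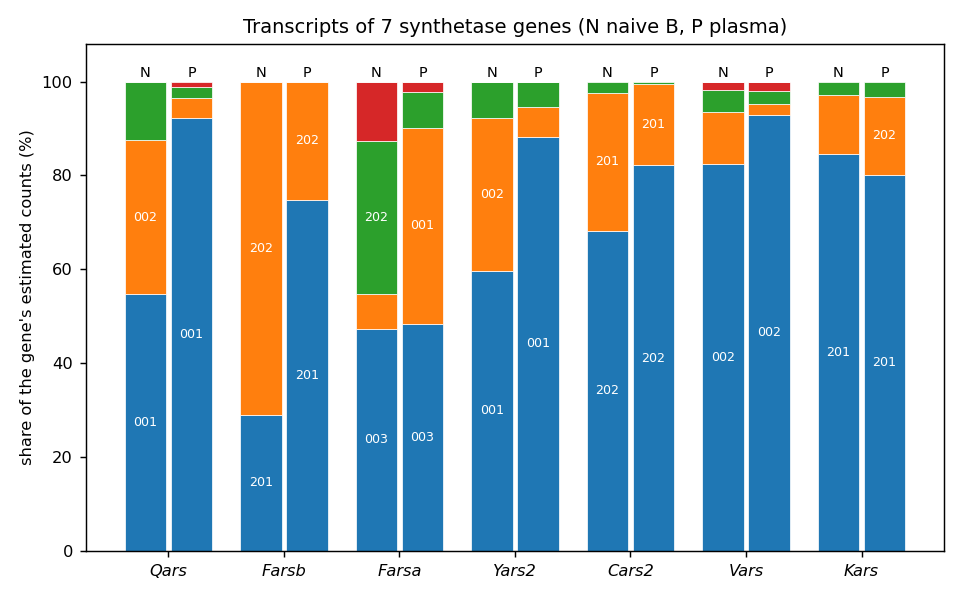
Share of the estimated counts of 7 synthetase genes taken by each listed transcript (percent, stacked to 100), in the naive B library (N, left bar) and the plasma library (P, right bar); within a gene a colour is the same transcript in both bars, and larger segments carry the end of the transcript's name. Qars-001 goes from 54.8% to 92.2%, Farsb-201 from 29.1% to 74.8% and Yars2-001 from 59.7% to 88.3%, while Kars-201 stays near 84.5% and 80.2%.

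The promoters of the members were searched for the motif TGATGNAA, the core of the composite sites that ATF4 binds with C/EBP partners, on both strands. The windows were those of RefSeq (GRCm38.p6), 300 bases long with 250 before and 50 after the start site, and 27 of the 36 members matched one. Cars, Hars, Hars2, Lars, Nars, Pars2, Rars, Vars and Wars had none. The motif was present in 5 of 13 cytosolic members, or 38.5%, and in 0 of 14 mitochondrial members. It was present in 4.51% of 27025 genes with a window, in 2.83% of the 7810 of these with at least 5 TPM, in 4.83% of the 1098 called higher, and in 7 of 21 ATF4 and amino acid genes. The cytosolic members with a match were Aars, Gars, Iars, Tars and Yars, which were all called higher. Those with a window but without a match were Dars, Eprs, Farsa, Farsb, Kars, Mars, Qars and Sars, of which Sars, Mars, Eprs, Kars and Dars were also called higher. The stretches of 60 bases before the start site that hold a match are printed for Aars (chr8:111033704-111033763, plus strand), Gars (chr6:55037941-55038000, plus strand) and Tars (chr15:11399659-11399718, minus strand), 5′ to 3′ on the strand of the gene, to show the letters found in cytosolic genes that were called higher. Capitals mark the match, which reads TTNCATCA because the motif lies on the opposite strand.
Aars: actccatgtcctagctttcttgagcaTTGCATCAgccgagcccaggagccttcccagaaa
Gars: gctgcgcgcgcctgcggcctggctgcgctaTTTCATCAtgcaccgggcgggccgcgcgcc
Tars: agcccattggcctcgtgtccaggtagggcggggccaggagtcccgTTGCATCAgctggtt
The matches begin at -112 in Aars, -30 in Gars and -15 in Tars, counted from the start site. Aars has another match after the start site, at 10, and in Iars and Yars the only match begins after it, at 8 and 4. A match is a description of the letters and not a measurement of binding, and no match says only that these letters were not in the window.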

How the data were processed

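Per the file headers, the deposited RNA tables hold the estimated counts and the TPM that the authors made for each transcript. The submitters' processing notes name kallisto and mm9 among their tools and builds; the versions, strand setting and filters were not given in the sources used here. Per the labels' protocols, the mRNA libraries were made with dUTP. ATAC-seq, TCC and ChIP-seq were not analysed here.

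Transcript values were summed to genes, and log2((plasma TPM + 1)/(naive TPM + 1)) was centred by subtracting its median over the 7495 genes that reached 5 TPM in each library. Intervals use estimated counts rounded to whole numbers, and reads carry no molecular identifiers, so that reads are not independent molecules. An interval belongs to the count ratio, and the centred TPM ratio of the same gene can lie outside it. Calls and intervals were tried on simulated counts that hold counting error only, which cannot check variation between animals or libraries. List medians use genes with at least 1 TPM in 1 library. Of 221 list entries, 2 had no match. The text names all 36 members, the 3 genes with the largest ratio of a list, and Aimp1, Aimp2, Eef1e1, Tarsl2, Atf4, Ddit3 and Asns; 1 other gene of the rule is not reported here. Members and lists were chosen with earlier results of these data known. The alternatives were 10, with 1 added after seeing the data. Shared words were read from GENCODE M21 transcripts, whose version can differ from the deposited ones. Protein sequences were not used here. Versions were R 4.3.3, edgeR 4.0.16 and DESeq2 1.42.0 (scaling factors only), Python 3.11.15, pandas 2.3.3 and SciPy 1.17.1.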

Additional observations from a re-analysis of the deposited data

How the results depend on the processing

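With 1 library per cell type, no setting gives a replicate check. No paired analysis was possible because each group has 1 library. Of 10 other settings, those that change the centring, the TPM filter or the transcripts cannot move the difference between the set medians. Under the others, which are the pseudocounts, the count scalings and the removal of immunoglobulin and mitochondrially encoded genes, that difference was 1.48 to 2.08, against 1.92. A pseudocount of 5 TPM gave medians of 1.39 (cytosolic) and -0.089 (mitochondrial), a difference of 1.48, and 1239 genes called lower in all. No centring gave medians of 0.59 and -1.34, with 6 cytosolic members called higher and 1 lower, 12 mitochondrial members called lower, and 792 genes higher and 5890 lower in all, against 1634 and 2257 with centring. Centring on genes with at least 20 TPM gave medians of 1.23 and -0.69, 11 cytosolic members called higher, and 1213 genes higher and 3471 lower. Estimated counts gave 1.98 and -0.10 with TMM factors and 2.01 and -0.072 with DESeq2 size factors, each with 16 cytosolic members called higher, with 2248 genes higher and 1716 lower and with 2312 and 1663. Without immunoglobulin and mitochondrially encoded genes the cytosolic median was 1.69. Without a TPM filter 3680 genes were called higher. Without Lars2, a setting added after seeing the data, 0 mitochondrial members were called higher. Every member transcript is listed with a coding sequence, so the setting with protein-coding transcripts alone removed none from the members and checks nothing for them. The centring sets how many members are called. Low counts limit the mitochondrial members most.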

Other observations

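Synthetases belong to class I or class II by the fold of the catalytic domain. The classes did not separate as the compartments did. Eprs, whose glutamate part is of class I and whose proline part is of class II, was counted in class I. Of the cytosolic members, 6 of 10 in class I and 8 of 10 in class II were called higher, with median centred ratios of 1.57 and 1.50. Of the mitochondrial members, the 9 of class I had a median of -0.24 and the 7 of class II a median of -0.46.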
